A study of Mus musculus with 4 samples.

Results

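Hyaluronan is the sugar polymer that swells the matrix of the heart's valve-forming cushions, and 8 genes of its synthesis, its binding and the sulphation of its partners are described here. They are Ugdh, Has2, Vcan, Hapln1, Cd44, Hmmr, Papss1 and Papss2, chosen by name, with every probe set whose platform annotation gives 1 of these symbols alone. That rule found 20 probe sets of 8 genes, out of 22626 probe sets on the array that are no controls. Of the 20, 15 were bright enough to be tested and 5 were not.

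Hyaluronan is a long chain without sulphate, spun out at the cell surface by hyaluronan synthases from nucleotide-activated glucuronic acid and N-acetylglucosamine. In the embryonic heart it fills the space between muscle and endocardium, and endocardial cells that turn into mesenchyme migrate into it. In mice, embryos without Has2 form no cushions. The proteoglycan versican is held on the hyaluronan chain by a link protein, and carries chondroitin chains that need an activated sulphate donor for their sulphation.

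RNA came from the atrioventricular (AV) junction and from the ventricular region of wild-type C57BL/6 mouse hearts between embryonic days 10.5 and 11.0, and no treatment is named. Each tissue was pooled from about 80 hearts, and 230 ng of AV junction RNA and 250 ng of ventricular RNA were amplified. A pair of Affymetrix MOE430A arrays, named 1a and 1b, was read for each region, which makes 4 arrays. No label says that the arrays of a region come from separate pools, so p-values measure the spread between arrays, which may be technical. The junction holds muscle, endocardium and cushion cells together.

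Intensities are given after scaling each array to a trimmed mean of 500, as the value on array 1a and then 1b. A log2 fold is the AV junction value minus the ventricular one, of intensity plus 50, fitted with limma over 13403 probe sets with a mean intensity of at least 100. A probe set passed where its p, adjusted by the Benjamini-Hochberg method over all 13403, was 0.05 or less. The level of background was taken from bacterial control probe sets (Bacillus subtilis genes), of which the brightest read 52.6 to 58.6 on the AV arrays and 97.9 to 104 on the ventricular arrays.

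Of the 15 probe sets tested, 11 were higher in the AV junction and 0 were lower by limma, while 4 did not pass. Without adjustment 11 were higher and 2 lower at a p under 0.05. Across all probe sets tested 7.24% were higher and 6.58% lower. The 8 genes were chosen with earlier results of these data known, so their counts beside such shares are a description and no test. The 11 belong to 6 genes, Ugdh, Has2, Vcan, Hapln1, Papss1 and Papss2, whereas no probe set of Cd44 or Hmmr passed. Intensities of the regions did not overlap for any of the 15, with the AV arrays above for 12 and below for 3, where 26.1% and 35.1% of all probe sets tested stand so. The brightest probe sets of the 8 genes had a median log2 fold of 1.12, and all 13403 probe sets one of −0.07. In pooled tissue, more cells of a type and more RNA per cell cannot be told apart.

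**Figure D1:**
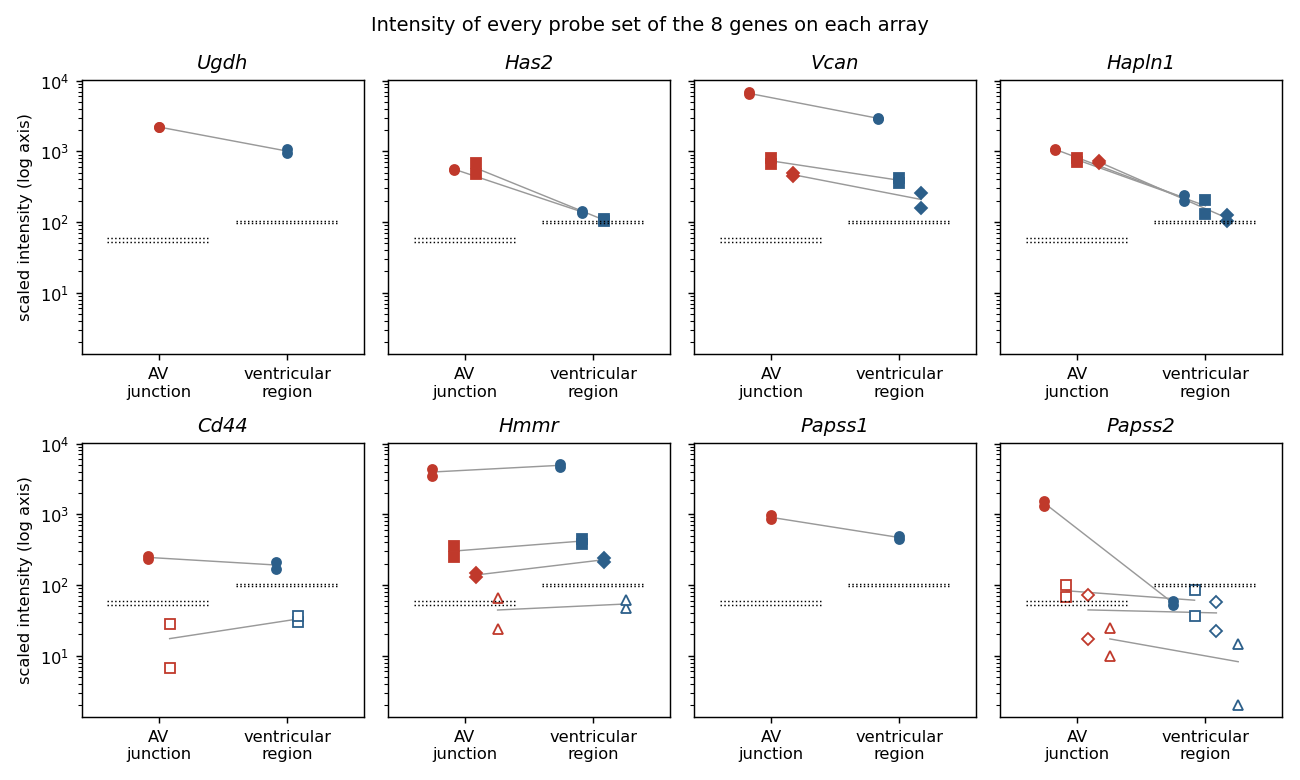
Scaled intensity (log axis) of the 20 probe sets by gene, 1 marker shape per probe set, with 2 points per region for the 2 arrays and a line between region means. Filled markers were tested, open ones were too dim, and dotted lines mark the brightest Bacillus subtilis control of each array. Points of the AV junction lie above those of the ventricular region for all probe sets of Ugdh, Has2, Vcan, Hapln1 and Papss1, and below for the 3 tested of Hmmr.

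Markers of other cells differed between the same pools. Of 11 cushion mesenchyme markers tested, 7 were higher and 0 lower, and their summed intensity was 10397 to 13039 on the AV arrays and 3371 to 3632 on the ventricular arrays. Of 7 ventricular muscle markers 6 were lower, with sums of 20828 to 21885 on the AV arrays and 70744 to 73881 on the ventricular arrays. Liver and serum protein genes summed to 7208 to 7556 on the AV arrays and 618 to 671 on the ventricular arrays. Of 5 tested 4 were higher, and Afp, Ttr, Apoa1 and Apob lay at or below background on both ventricular arrays. Erythroid genes summed to 18007 to 18246 on the AV arrays and 46796.5 to 52111 on the ventricular arrays, with 5 of 6 lower. Of 7 endothelial markers 2 were higher and 0 lower, and of 5 epicardial markers 0 were higher and 1 lower. What part these differences in tissue makeup have in the results below was not tested.

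Ugdh oxidises UDP-glucose to UDP-glucuronic acid, a building block of hyaluronan and of chondroitin and heparan chains. Its single probe set read 2223 and 2191 in the AV junction, against 942 and 1071 in the ventricular region. The arrays of a region lay close together and far from those of the other. The log2 fold was 1.10 with an SE of 0.11, a 2.14-fold difference (limma, adjusted p = 0.00143).

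Has2 is the main hyaluronan synthase of the embryonic heart. On probe set 1418678_at it read 567 and 551 in the AV junction, against 133 and 144 in the ventricular region. On 1449169_at it read 681 and 479 in the AV junction, against 103 and 111 in the ventricular region. Every AV array stood well above both ventricular arrays, which were themselves only a little above background. The log2 folds of 1.69 (SE 0.16) and 1.99 (SE 0.21) had overlapping 95% intervals, 1.31 to 2.07 and 1.51 to 2.47, and adjusted p-values of 0.00117 and 0.00165 with limma. Both probe sets carry the same transcript accession, so they are repeated readings of 1 gene and not separate evidence. The probe sets of Vcan and those of Hapln1, below, are likewise repeated readings of 1 gene each.

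Vcan encodes versican, the large chondroitin sulphate proteoglycan of cushion matrix, whose head binds hyaluronan. Its brightest probe set, 1427256_at, read 6798 and 6371 in the AV junction, against 2995 and 2873 in the ventricular region. That is 2.22-fold higher, with a log2 fold of 1.15 and an SE of 0.09 (limma, adjusted p = 0.000573). The transcript was thus well above background in the ventricular region too.

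The other probe sets of Vcan went the same way with less precision. Probe set 1421694_a_at read 808 and 657 in the AV junction, against 421 and 356 in the ventricular region, with a log2 fold of 0.83 (SE 0.16, limma, adjusted p = 0.0160). On 1427257_at the AV arrays read 444 and 492 and the ventricular arrays 261 and 156, with a log2 fold of 1.03 (SE 0.22, limma, adjusted p = 0.0242). Neither call held with every array in turn left out. Without AV array 1a their adjusted p-values were 0.0722 and 0.0646, and without ventricular array 1b 0.0728 and 0.0763, while 1427257_at also missed without AV array 1b (0.0921). Over all alternatives the adjusted p ran from 0.00302 to 0.0728 for 1421694_a_at and from 0.00588 to 0.0921 for 1427257_at. The brightest probe set passed in all of them, with an adjusted p of at most 0.0215.

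Hapln1 encodes the link protein that locks versican onto hyaluronan. All 3 of its probe sets were higher in the AV junction. The brightest, 1421633_a_at, read 1033 and 1092 in the AV junction, against 200.2 and 241 in the ventricular region. Probe set 1426295_at read 807 and 709.6 in the AV junction, against 208 and 132 in the ventricular region. On 1426294_at the AV arrays read 739 and 672 and the ventricular arrays 124 and 103, of which 1 of 2 was above background. No array of one region came near the other region's. Log2 folds were 2.04 (SE 0.15), 1.90 (SE 0.20) and 2.21 (SE 0.17), with limma's adjusted p-values of 0.000402, 0.00177 and 0.0005. Among all 13403 probe sets these folds ranked 36th, 45th and 27th from the highest, and those of Has2 65th and 40th. The 95% intervals of the 3 probe sets of Hapln1 span 1.43 to 2.61, and those of the 3 of Vcan 0.46 to 1.55.

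**Figure D2:**
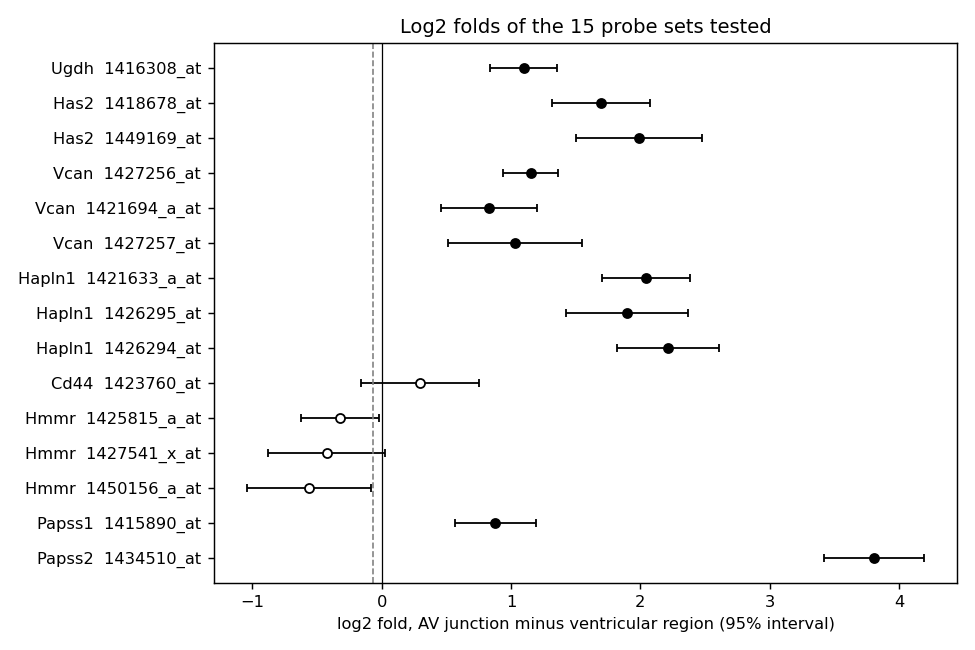
Log2 fold (AV junction minus ventricular region) of the 15 probe sets tested, with unadjusted 95% intervals from limma. Filled points passed, open points did not, and the dashed line marks the median of all 13403 probe sets, −0.07. The 3 probe sets of Hapln1 lie between 1.90 and 2.21 and the 3 of Vcan between 0.83 and 1.15, and Papss2 lies right of both at a place that depends on the added 50, its ventricular arrays being below background.

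Hapln1 and Vcan are next to each other on mouse chromosome 13, with 0 protein-coding genes between them in the RefSeq gene table of GRCm38.p6. Their promoters are shown because the neighbours were higher in the same region. Each line gives the 250 bases before the start site from RefSeq (GRCm38.p6), 5′ to 3′ on the gene's strand, and capitals mark a match to the E-box CANNTG, the motif bound by Twist and Snail factors among others.
Hapln1 promoter, chr13:89540386-89540635, plus strand: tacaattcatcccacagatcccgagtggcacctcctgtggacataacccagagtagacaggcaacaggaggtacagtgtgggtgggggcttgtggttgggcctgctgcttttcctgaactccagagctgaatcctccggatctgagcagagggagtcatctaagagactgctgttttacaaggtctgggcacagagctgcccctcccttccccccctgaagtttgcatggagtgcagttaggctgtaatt
Vcan promoter, chr13:89742513-89742762, minus strand: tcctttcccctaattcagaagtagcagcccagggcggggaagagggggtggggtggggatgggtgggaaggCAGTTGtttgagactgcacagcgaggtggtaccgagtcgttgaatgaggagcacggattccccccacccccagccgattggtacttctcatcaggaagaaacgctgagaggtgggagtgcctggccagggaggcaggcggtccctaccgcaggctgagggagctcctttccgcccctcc
The windows differ in composition. That of Vcan has 62.4% G and C and 10 CpG pairs, and that of Hapln1 54.4% and 2, where the median of 32841 promoters is 52.4% and 6. One E-box match stands 179 bases before the start site of Vcan, a match that 66.2% of all promoters hold at least 1 of on either strand. The T-box half-site GGTGTGA, the box GGCGCC and the box TATAAA, each sought on both strands, match in neither window, and 3.33%, 9.59% and 12.4% of promoters hold them.

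The nearest gene on each side of the pair, and the next one out, were read as well. Edil3, a secreted matrix protein beside Hapln1, read 308 and 263 in the AV junction, against 74.1 and 42.6 in the ventricular region, where both arrays were below background, on its 1 tested probe set. It was at least 2.82-fold higher (limma, adjusted p = 0.00735), and its other 2 probe sets were too dim to test. Xrcc4, a DNA repair gene beside Vcan, had log2 folds of −0.24 and 0.67 on its probe sets and did not pass (limma, adjusted p = 0.534 and 0.396). Further out, Cox7c beyond Edil3 was lower on 1459885_s_at, with a log2 fold of −0.91 (limma, adjusted p = 0.00549). Its other probe set was too dim to test. Tmem167 beyond Xrcc4 passed as higher on 1450904_at and 1423208_at, with log2 folds of 0.51 and 0.90 (limma, adjusted p = 0.0143 and 0.0388). Its other probe sets gave 0.36, −0.07 and −0.06 and did not pass.

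Cd44 encodes a transmembrane receptor for hyaluronan. Probe set 1423760_at read 231 and 260.1 in the AV junction, against 212 and 171 in the ventricular region. The AV arrays were higher by less than the fit could tell from the spread, with a log2 fold of 0.29, a 95% interval of −0.16 to 0.75 and an adjusted p of 0.334 with limma. The other, 1452483_a_at, lay below background on all 4 arrays, at 6.70 and 28.2 in the AV junction and 29.8 and 36.2 in the ventricular region, and was not tested.

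Hmmr encodes a hyaluronan-binding protein that also sits on the mitotic spindle. Its brightest probe set, 1425815_a_at, read 3475 and 4426 in the AV junction, against 4700.3 and 5140 in the ventricular region. Probe set 1427541_x_at read 249 and 354 in the AV junction, against 386 and 450.4 in the ventricular region. On 1450156_a_at the AV arrays read 128 and 149 and the ventricular arrays 242 and 213. All 3 had lower intensities on both AV arrays, but none passed with limma, at log2 folds of −0.32, −0.43 and −0.56 and adjusted p-values of 0.138, 0.180 and 0.111. Unadjusted 95% intervals were −0.62 to −0.02, −0.88 to 0.03 and −1.04 to −0.08. A probe set whose name ends in _x_at may also bind related transcripts. The last probe set, 1450157_a_at, was too dim to test, at 64.7 and 23.8 in the AV junction and 46.6 and 61.0 in the ventricular region.

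Since Hmmr is a gene of dividing cells, other mitotic genes were read beside it. Of 19 tested, 1 was higher and 0 lower with limma, with 4 higher and 2 lower at an unadjusted p under 0.05, and their median log2 fold was 0.10. The 1 that passed was Tpx2, a spindle assembly factor, which read 713 and 795 in the AV junction, against 501 and 371 in the ventricular region. Its log2 fold was 0.74 (limma, adjusted p = 0.0285), and it missed when either AV array or ventricular array 1b was left out (0.0613, 0.104 and 0.109). A second probe set of Tpx2 gave −0.20 and did not pass.

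Papss1 and Papss2 encode isoenzymes that make PAPS, the activated sulphate donor for all sulphotransferases. Papss1 read 843 and 966 in the AV junction, against 447 and 489 in the ventricular region. It was 1.84-fold higher, with a log2 fold of 0.88 and an SE of 0.13 (limma, adjusted p = 0.00773).

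Papss2 was bright in the AV junction and at background in the ventricular region. On 1434510_at it read 1560 and 1303 in the AV junction, against 52.3 and 59.4 in the ventricular region, where both arrays were below background. It was therefore at least 14.1-fold higher (limma, adjusted p = 5.52e-05), and it entered the test through its AV arrays alone. The highest fitted fold among the other 14 probe sets was 4.64, on Hapln1. The other 3 probe sets of Papss2 were too dim to test. Probe set 1421987_at read 66.7 and 98.9 in the AV junction and 36.5 and 85.2 in the ventricular region. The AV arrays were above their background and the ventricular arrays below theirs, which was higher, and the intensities of the regions overlapped. Probe set 1421989_s_at read 71.7 and 17.1 in the AV junction and 58.3 and 22.1 in the ventricular region. Probe set 1421988_at read 24.5 and 10.1 in the AV junction and 2.01 and 14.4 in the ventricular region. These 3 carry another accession than the bright one, and the sequences they bind were not analysed here.

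The isoenzymes were set against each other within each array, on log2 intensities with no added constant and with Papss2 at the level of the control where it lay below it. The log2 of Papss2 minus that of Papss1 was 0.89 and 0.43 in the AV junction, and at most −2.19 and −2.23 in the ventricular region. The shift between regions was thus at least 2.87 on the log2 scale. With 2 arrays per region the exact two-sided permutation test gave 0.333, the smallest p it allows, and so cannot tell the shift from chance. Levels of different probe sets cannot be compared, so these values do not show which isoenzyme is the more abundant.

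Promoters of the isoenzymes are shown for the first of their 2 listed start sites, since both genes were higher in the AV junction. Window, source, strand and capitals are as above.
Papss1 promoter, chr3:131564518-131564767, plus strand: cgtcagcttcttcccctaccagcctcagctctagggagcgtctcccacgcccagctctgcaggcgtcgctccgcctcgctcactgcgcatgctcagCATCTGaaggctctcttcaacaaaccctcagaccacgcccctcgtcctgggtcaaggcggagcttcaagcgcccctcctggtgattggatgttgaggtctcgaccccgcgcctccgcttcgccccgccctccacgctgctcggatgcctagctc
Papss2 promoter, chr19:32595465-32595714, plus strand: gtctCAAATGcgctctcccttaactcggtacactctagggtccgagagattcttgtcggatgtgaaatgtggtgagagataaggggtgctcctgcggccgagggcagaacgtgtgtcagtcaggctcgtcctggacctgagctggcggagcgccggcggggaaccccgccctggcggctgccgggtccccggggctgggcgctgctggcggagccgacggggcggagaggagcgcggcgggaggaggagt
Both are rich in CpG pairs, with 20 in Papss1 and 24 in Papss2, and have 65.2% and 67.6% G and C. One E-box match stands 154 bases before the start of Papss1 and one 246 bases before that of Papss2, and the other 3 motifs match in neither window. The windows of the second start sites, not shown, have 5 CpG pairs in Papss1 and 1 in Papss2, with 48.8% and 43.2% G and C. That of Papss1 holds an E-box match 121 bases before its start, and that of Papss2 holds none. Which start site is used in these tissues was not tested.

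**Figure D3:**
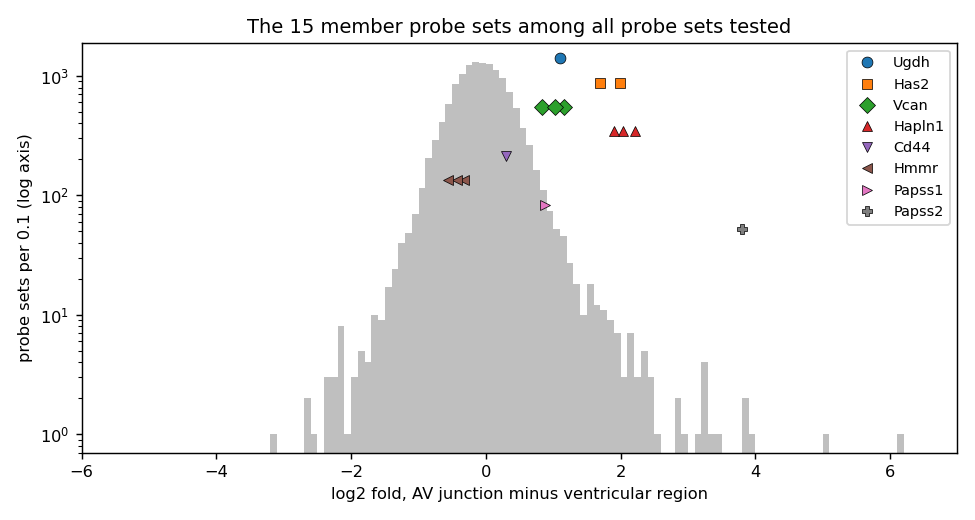
Histogram of log2 folds (AV junction minus ventricular region, bins of 0.1) of all 13403 probe sets tested, with their number on a log axis, and the 15 of the 8 genes as coloured markers whose height has no meaning. Hapln1, Has2 and Papss2 lie in the thin right tail, Ugdh, Vcan and Papss1 at its start, and Cd44 and Hmmr within the bulk. The place of Papss2 depends on the added 50.

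Most other genes around hyaluronan and sulphation did not pass. In 8 lists of 112 genes, 97 were on the array and 73 were tested by their brightest probe set. With limma 9 of these were higher and 2 lower, and 62 missed the threshold. That is 12.3% higher and 2.74% lower, against 8.47% and 6.54% of all 8410 genes tested. These lists too were chosen with earlier results of the data known. With arrays scaled on their medians instead, 15 were higher and 0 lower. The median log2 fold of the 73 was −0.0028, and that of all genes −0.06.

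No other gene of hyaluronan synthesis, breakdown or uptake passed. Of 7 tested 0 were higher and 0 lower, with 0 and 1 at an unadjusted p under 0.05. Has1, another synthase, read 87.1 and 191 in the AV junction, against 177 and 220.3 in the ventricular region, and Has3 was too dim to test. The hyaluronidase gene Hyal2 read 606 and 804 in the AV junction, against 607 and 729 in the ventricular region. Its log2 fold of 0.06 turned to −0.13 without AV array 1b and −0.06 without ventricular array 1a. Cemip2, a cell-surface hyaluronidase, had log2 folds of −0.41 and 0.13 on its probe sets and did not pass (limma, adjusted p = 0.263 and 0.755).

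Hyaluronan also binds proteins other than versican and its link protein. Of 8 such genes tested 2 were higher and 0 lower, with 3 and 2 at an unadjusted p under 0.05. Itih5, a heavy chain of the inter-alpha-trypsin inhibitor family, read 349 and 352 in the AV junction, against 185 and 211 in the ventricular region (log2 fold 0.69, limma, adjusted p = 0.0373), and missed without any 1 of the 4 arrays (0.0837 to 0.141). Ambp, which encodes the light chain bikunin and is a serum protein gene of liver, was at least 1.88-fold higher, with 193 and 187 in the AV junction and 74.4 and 14.8, below background, in the ventricular region (limma, adjusted p = 0.0382). It missed without ventricular array 1b (0.0975) and fell under the intensity floor without either AV array.

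By brightest probe set only 1 other gene of sugar supply passed, in the other direction. Of 13 genes of the UDP-sugar pathways tested so, 0 were higher and 1 lower, with 1 and 2 at an unadjusted p under 0.05. A dimmer probe set of Ugp2, 1434485_a_at, did pass as higher. It read 3052 and 3205 in the AV junction, against 2208 and 2508 in the ventricular region (log2 fold 0.40, limma, adjusted p = 0.0434). The brightest of Ugp2 gave 0.21 and its others −0.03, 0.02 and 0.20, and none of these passed. Hk1, the hexokinase that opens glucose use, read 1851 and 1831 in the AV junction, against 2792 and 2598 in the ventricular region. Its log2 fold was −0.54 (limma, adjusted p = 0.0137, and 0.0818 without ventricular array 1a), while a second probe set gave −0.29 and did not pass.

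Sulphate handling and transfer changed at few points. Of 6 genes of sulphate uptake, PAPS transport and PAP breakdown 1 was higher and 0 lower. It was Bpnt2, a Golgi phosphatase that clears the by-product of sulphation, with 4371 and 3828 in the AV junction and 3038 and 3089 in the ventricular region. The log2 fold was 0.41 (limma, adjusted p = 0.0375), and it missed with AV array 1a (0.147), ventricular 1a (0.142) or ventricular 1b (0.117) left out. Its other 2 probe sets gave 0.11 and 0.40 and did not pass.

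Among 10 glycosaminoglycan sulphotransferase genes tested 2 were higher and 0 lower, and 8 did not pass. Chst15 adds a further sulphate to chondroitin sulphate. It read 317 and 338 in the AV junction, against 31.5 and 19.8, below background, in the ventricular region, at least 3.24-fold higher (limma, adjusted p = 0.00162), and its second probe set was too dim to test. Chst14, the dermatan sulphotransferase, read 494 and 329 in the AV junction, against 133 and 83.8 in the ventricular region, of which 1 of 2 was above background. Its log2 fold was 1.54 (limma, adjusted p = 0.00993, and 0.0533 without AV array 1a). The median log2 fold of the 10 was −0.15.

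Proteases that cut versican gave no call. Of 3 tested 0 were higher and 0 lower with limma, also at an unadjusted p under 0.05. Adamts1 read 634 and 671 in the AV junction, against 538 and 554 in the ventricular region, with a log2 fold of 0.24 (adjusted p = 0.246). Adamts15 gave −0.13, which turned to 0.03 with median scaling and 0.04 without AV array 1b.

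Partners of CD44 inside the membrane and the proteases that shed it went both ways. Of 7 tested 3 were higher and 1 lower. The sheddase genes Adam17, Adam10 and Mmp14 rose by log2 folds of 0.92, 0.68 and 0.64 (limma, adjusted p = 0.0160, 0.00741 and 0.0444). Adam10 read 2978 and 2779 in the AV junction, against 1865 and 1702 in the ventricular region. Its log2 fold was 0.61 to 0.74 with 1 array left out. Without the variance trend Adam10 missed (limma, adjusted p = 0.0567). Adam17 missed with AV array 1a, ventricular 1a or ventricular 1b left out (0.0838, 0.0598 and 0.0650), and Mmp14 without any 1 of the 4 arrays (0.0621 to 0.168). A second tested probe set of Adam17 gave 0.12 and did not pass. Ezr, which ties CD44 to actin, fell by 0.52 (limma, adjusted p = 0.0267), and missed with AV array 1a, ventricular 1a or ventricular 1b left out (0.0974, 0.129 and 0.0708). A second probe set of Ezr gave −0.43 and did not pass.

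**Figure D4:**
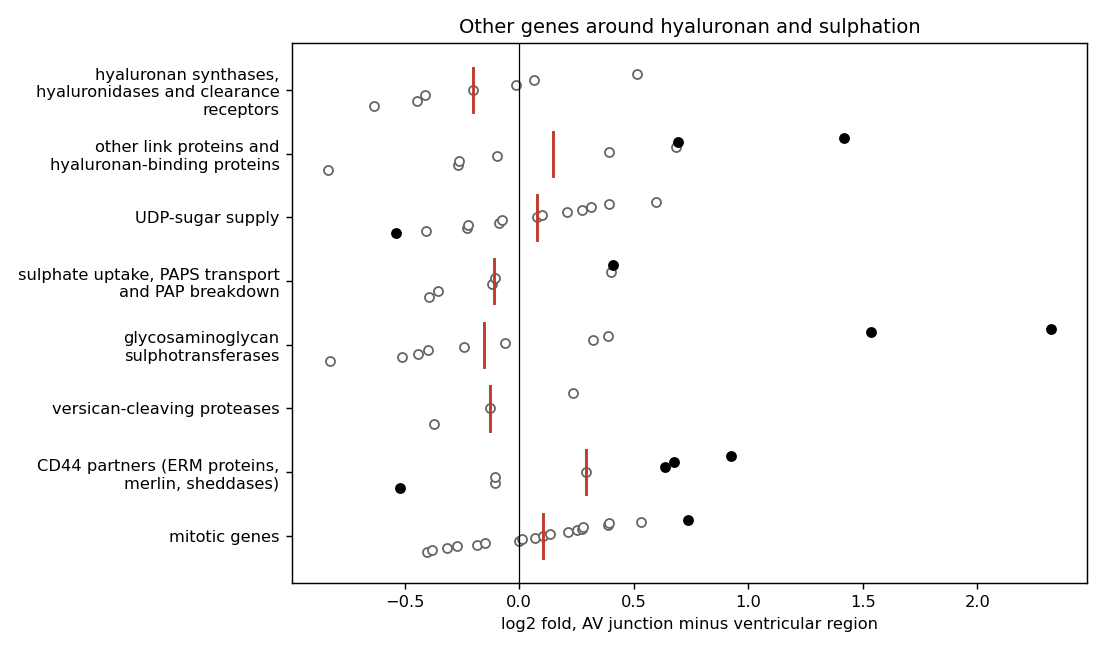
Log2 fold (AV junction minus ventricular region) of 73 other genes tested, 1 point per gene, in 8 lists. Filled points passed, open ones did not, and red bars mark list medians, which lie between −0.20 and 0.29. Chst15 and Chst14 lie at the right, and the place of Chst15, like that of Ambp, depends on the added 50, since their ventricular arrays were below background.

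Genes with the profile most like that of Has2, Hapln1 and Vcan were sought among the 8409 other genes, by the root mean square distance of log2 values centred on their mean over the 4 arrays. Nearest to Has2 were the uncharacterised 6330403K07Rik at a distance of 0.06, the nuclear receptor gene Nr2f2 at 0.06 and the T-box repressor gene Tbx3 at 0.08. Nearest to Hapln1 were the secreted protease gene Htra1 at 0.07, the homeobox gene Hoxa5 (below background on both ventricular arrays, so that its distance depends on the added 50) at 0.10 and the matrix gene Postn at 0.13. Nearest to Vcan were Perp at 0.03, Dhrs7 at 0.04 and Pag1 at 0.05. With 4 arrays in 2 regions these distances mostly reflect a fold of the same size, and they are given as a description with no test.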

How the data were processed

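The authors made 1 intensity per probe set and array with MAS5, per the submitters' processing notes, and deposited it on a linear scale. A version, detection calls and a genome build are not given in the sources used here. These intensities have nearly the same 2% trimmed mean on every array. The experiment records show 1 chip lot, and a fluidics module and scan time of its own for each array, so neither module nor scan could be fitted as a batch.

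Arrays were scaled to a 2% trimmed mean of 500, a factor of about 3.35 on each. Probe sets with a mean of at least 100 were fitted as log2 of intensity plus 50 with limma 3.58.1 under R 4.3.3, with a term for region and an eBayes variance trend. The fit was tested on simulated data. Of 22626 probe sets 20380 have 1 gene symbol, and a gene outside the 8 was represented by its tested probe set with the highest mean. Pearson's r over probe sets was 0.979 to 0.980 within regions and 0.947 to 0.950 between them. "At least" folds set the brighter region's mean log2 intensity against the brightest Bacillus subtilis control of the dimmer region's arrays. Precision is limited by the number of arrays.

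The 8 genes, the lists, the markers and the background were chosen with earlier results of these data known. Named from each list were the up to 4 largest changes that passed, or the 2 brightest genes where none did. Has1, Has3, the flanking genes, the second probe sets and the motifs were added after values were seen. Sequences for the 8 genes came from RefSeq promoter tables, in which Ugdh, Vcan, Hapln1, Cd44, Hmmr, Papss1 and Papss2 matched and Has2 did not. Figures used matplotlib 3.10.9 in Python 3.11.15.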

Additional observations from a re-analysis of the deposited data

How the results depend on the processing

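Alternatives were quantile normalisation, median scaling, the deposited scale, an added constant of 1 or 200, no intensity floor or one of 300, no variance trend, a replicate block, each array in turn omitted, probe sets named _x_at or _s_at omitted and, for genes of the lists, all probe sets of a gene averaged. Over these, 196 of 205 refits of the 15 probe sets of the 8 genes kept their direction and their side of the threshold, 8 lost the call, all in Vcan, 1 gained one and 0 changed sign. Vcan's 1421694_a_at and 1427257_at missed without the trend (adjusted p = 0.0570 and 0.0665), and the second also without a floor (0.0747). With each array left out the higher probe sets numbered 9 to 11, and lower ones 0. Median scaling moved the median log2 fold of all probe sets to 0.09, from −0.07.

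The labels link same-numbered arrays by number only. The correlation of their deviations was 0.0564, which does not show whether they share a step of preparation. With the replicate block 11 probe sets were higher and 1 lower, the brightest of Hmmr (limma, adjusted p = 0.0231), which passed in 1 of 14 alternatives. Higher genes among the 73 of the lists numbered 15 with median scaling, 3 without a floor, 3 without the trend and 2 to 5 with 1 array left out. Lower ones numbered 0 with median scaling, 1 without a floor, 0 without the trend, 4 with the replicate block, 1 without _x_at and _s_at probe sets, 1 with probe sets averaged, and 0 to 2 with 1 array left out. The fitted shift of Papss2 against Papss1 depends on the added constant, as Papss2 was below background in the ventricular region: 2.92 with 50 added, 2.08 on the deposited scale, 3.71 with 1 and 1.95 with 200. Log2 folds that changed sign were those of Hyal2 (−0.13 without AV array 1b and −0.059 without ventricular array 1a, up to 0.26 without AV array 1a), Adamts15 (0.033 with median scaling, and −0.30 to 0.044 with 1 array left out) and both probe sets of Xrcc4 (−0.49 to 0.017 on 1424601_at and −0.17 to 1.501 on 1424602_s_at with 1 array left out). Of all 13403 probe sets 970 were higher and 882 lower, against 326 and 343 without the trend and 1344 and 1375 with the block. The cause of these shifts was not tested.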
